A study of Homo sapiens with 6 samples.

Results

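Of 5992 HMGB2 peaks on chromosomes 1 to 22 and X of untreated IMR90 cells, 1317 (22%) overlapped by at least 1 bp a SON peak in untreated cells, a SON peak after 3 days of ICM and a SON peak after 6 days of ICM. These 1317 peaks, the members, were chosen on measured values, namely the presence of a SON peak in each of 3 lists. The SON overlap itself, the SON strength and the distance between summits below are therefore a description of the choice. ICM is the name the labels give the treatment, which they do not expand. IMR90 is an established line of human embryonic lung fibroblasts. The profiles were made by ChIPmentation, in which a transposase inserts sequencing adapters into antibody-bound chromatin, and 1 peak list per group was analysed. Cells for the SON lists were fixed with 1% formaldehyde alone. Cells for the HMGB2 list were untreated and were fixed with 1.5 mM EGS, a long-armed protein crosslinker, before the 1% formaldehyde. No HMGB2 list of ICM-treated cells was analysed, so every comparison across days sets SON of a given day against HMGB2 of untreated cells. The labels name no separate cultures, and no expression values entered that could check the identity of the cells.

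SON is a large RNA-binding scaffold protein of nuclear speckles, the nuclear bodies that store splicing factors and lie next to highly transcribed genes. HMGB2 is a chromatin protein with 2 HMG boxes that binds and bends DNA with little preference for sequence, and its loss from the nucleus is a known feature of senescent fibroblasts. Antibody-based profiles of SON place speckles at gene-dense, active chromatin.

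The members lay mostly just before gene starts, and the DNA at 9 of them is shown here, arranged by 2 of the motifs searched. Each line gives 121 bases centred on the HMGB2 summit, written 5′ to 3′ along the strand of the named gene, from RefSeq promoter windows of GRCh38.p14. Each stretch is upstream of the start and outside every annotated gene body of the table. Capitals mark a match to CCAAT or its reverse complement, the box bound by the trimeric factor NF-Y, and a match to GCGCATGCG or its reverse complement, the core bound by the factor NRF1. These 2 motifs of the 12 searched were put in capitals after their shares had been seen. The 9 members were chosen among the 274 that had a full stretch of this kind, so members of higher rank can be missing. Among these 274, the first 3 stretches are those of highest mean rank with a CCAAT match only.
CSNK1G3: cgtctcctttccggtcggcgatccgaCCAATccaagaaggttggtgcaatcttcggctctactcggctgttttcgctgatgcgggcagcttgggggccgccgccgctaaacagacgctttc
EXOSC5: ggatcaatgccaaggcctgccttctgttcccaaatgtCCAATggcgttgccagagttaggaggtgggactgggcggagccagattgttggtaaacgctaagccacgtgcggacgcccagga
DDIT3: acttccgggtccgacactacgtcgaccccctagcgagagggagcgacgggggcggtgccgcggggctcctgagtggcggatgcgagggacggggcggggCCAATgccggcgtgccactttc
They lie at chr5:123512039-123512159 on the plus strand, chr19:41397430-41397550 on the minus strand and chr12:57520593-57520713 on the minus strand. CSNK1G3 encodes a casein kinase, EXOSC5 a subunit of the RNA exosome and DDIT3 the stress-induced factor CHOP. The next 3 carry the NRF1 core, and ASDURF and PCNX3 among them hold a CCAAT match too.
IRGQ: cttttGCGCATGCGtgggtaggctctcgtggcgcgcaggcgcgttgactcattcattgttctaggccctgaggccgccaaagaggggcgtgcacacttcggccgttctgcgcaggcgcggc
ASDURF: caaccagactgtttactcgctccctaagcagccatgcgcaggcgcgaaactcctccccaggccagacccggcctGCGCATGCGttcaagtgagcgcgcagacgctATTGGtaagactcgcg
PCNX3: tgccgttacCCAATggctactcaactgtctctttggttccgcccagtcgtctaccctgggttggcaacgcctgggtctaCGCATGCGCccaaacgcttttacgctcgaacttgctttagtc
They lie at chr19:43596198-43596318 on the minus strand, chr2:189661297-189661417 on the plus strand and chr11:65615535-65615655 on the plus strand. The last 3 stretches hold neither match within their 121 bases, which says nothing of the rest of these members.
LOC107986644: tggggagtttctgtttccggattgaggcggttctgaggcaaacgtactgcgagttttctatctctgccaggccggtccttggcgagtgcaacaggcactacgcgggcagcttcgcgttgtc
CDNF: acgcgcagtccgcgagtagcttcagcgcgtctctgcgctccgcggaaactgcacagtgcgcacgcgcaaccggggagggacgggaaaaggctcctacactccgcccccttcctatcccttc
ZNF143-AS1: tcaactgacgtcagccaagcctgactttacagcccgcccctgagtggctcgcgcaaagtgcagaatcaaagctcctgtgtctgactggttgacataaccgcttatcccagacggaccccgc
They lie at chr6:132814348-132814468, chr10:14838102-14838222 and chr11:9460740-9460860, all on the minus strand. LOC107986644 starts head to head with RPS12, a protein of the small ribosomal subunit, and CDNF encodes a secreted neurotrophic factor.

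All values of strength are the authors' −log10 p of the peak in its own list, and a percentile is the rank within that list, where 100 is the strongest line. A SON value is the lower of the values of its 2 replicates. At the CSNK1G3 stretch HMGB2 had a −log10 p of 18.1, and SON had 143, 75.6 and 37.0 in the untreated, 3-day and 6-day lists, the order kept below. At EXOSC5 the HMGB2 value was 78.3, and the SON values were 55.5, 55.5 and 21.2. At DDIT3 HMGB2 had 27.7 and SON had 70.2, 48.6 and 18.5. At CSNK1G3 and DDIT3 the 3-day SON value was below the untreated one, and at EXOSC5 both were the same to 3 digits. At the 3 stretches with the NRF1 core, the SON value was higher at 3 days than in untreated cells. These 3 were picked by rank, and over all 57 members with the core the median was 46.8 in untreated cells and 41.1 at 3 days. At IRGQ, a GTPase-like gene that shares its start region with the zinc finger gene ZNF576, HMGB2 had 93.0 and SON had 203, 295 and 70.4. At ASDURF HMGB2 had 16.5 and SON had 124, 184 and 59.1. At PCNX3 HMGB2 had 17.6 and SON had 83.9, 108 and 29.1. For each of these 6 the 6-day value was the lowest of the 3 SON values. A −log10 p depends on read depth, which is unknown for these lists, and with 1 list a day no change between days was tested.

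The 1317 members were met by 1294 different lines of the untreated SON list, 1296 of the 3-day list and 1298 of the 6-day list, out of 22216, 11028 and 5481 lines. A SON line met at most 2 members, and 23, 21 and 19 lines in the 3 lists met 2. The overlaps were large, with the median of the smallest of a member's 3 overlaps at 263 bp. The edge of the rule was thinly filled. Just inside it, a member in LOC105371912 overlapped its 6-day line by 8 bp, one at LOC107985502 by 15 bp and one at ZBTB4 and POLR2A by 52 bp. Just outside it, a peak at DYNLRB1 missed a 6-day line by 26 bp, one at PPP1CB missed a 6-day line by 31 bp, and one outside genes at chr16:57299961-57300181 missed a 3-day line by 44 bp. Of all HMGB2 peaks, 62.3% met a line of the untreated SON list, 44.1% one of the 3-day list and 23.5% one of the 6-day list. The members are 1317 of the 1411 HMGB2 peaks that met SON at 6 days, and the groups they are set against are 1250 peaks met at untreated and 3 days only, 1101 met in untreated cells only and 2165 met by no SON list.

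HMGB2 itself was detected more strongly in significance and less strongly in enrichment at the members than at other HMGB2 peaks. The median −log10 p was 11.1 at the members (95% interval of the median 10.85 to 11.4), 10.4 at peaks met at untreated and 3 days only, 9.52 at those met in untreated cells only and 8.55 at those met by no SON list (8.54 to 8.68). The median fold enrichment over the caller's background, also the authors' value, ran the other way, with 4.16 (4.07 to 4.26), 4.65, 4.84 and 5.41 (5.34 to 5.45). Medians of all HMGB2 peaks were 9.52 and 4.89. The median width was 275 bp at the members, 253.5 bp, 241 bp and then 220 bp at the peaks without SON. The intervals of members and peaks without SON did not overlap for any of the 3 measures. These intervals cover counting error over peaks of 1 list only, and there was no replicate list.

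**Figure D1:**
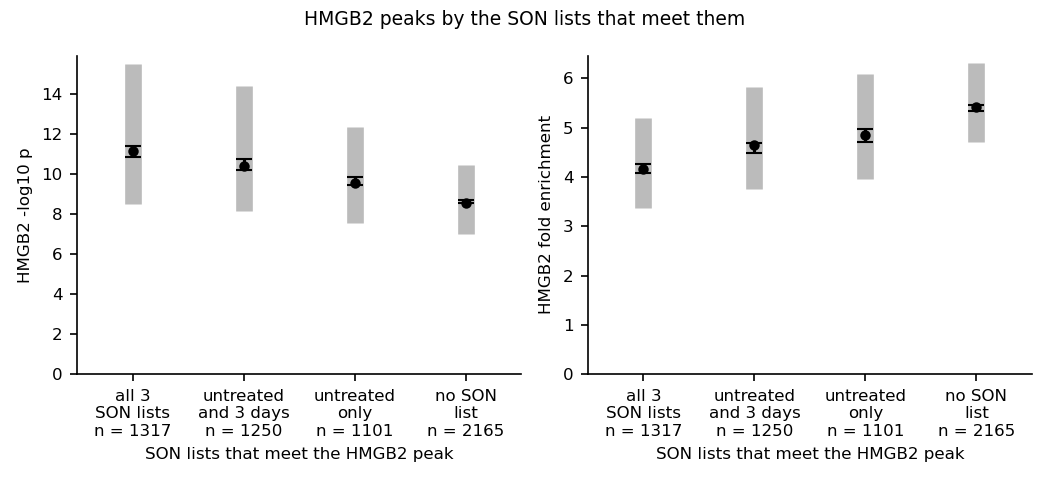
HMGB2 −log10 p (left) and HMGB2 fold enrichment (right) of the HMGB2 peaks, grouped by the SON lists that meet them. Points are medians with their 95% intervals, grey bars run from the lower to the upper quartile, and the members on the left have the highest median −log10 p (11.1) and the lowest median fold (4.16).

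The opposite order of fold and significance was present at every peak width. In the narrowest of 5 width classes, up to 188 bp, members had a median fold of 3.85 and a −log10 p of 8.75, and peaks without SON had 5.23 and 7.82. In the widest class, of peaks over 336 bp, members had 4.64 and 15.8, and peaks without SON had 5.92 and 9.91. The share of HMGB2 peaks that were members was higher among strong HMGB2 peaks. It was 14.5% (12.6 to 16.6) in the weakest of 5 classes by −log10 p and 37.4% (34.6 to 40.2) in the strongest. The caller's local background, which enters both values, was not analysed here, and its part in this order was not tested.

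SON lines at the members were stronger than most lines of their lists, most of all in untreated cells. The median SON −log10 p at the members was 29.5, 17.4 and 9.69 in the untreated, 3-day and 6-day lists, where the medians of all lines were 9.90, 9.06 and 8.50. As percentiles the members' medians were 92.9 (92.4 to 93.5), 84.9 (83.4 to 86.1) and 65.2 (61.8 to 67.9). SON lines that were met by both other SON lists but held no HMGB2 peak numbered 2942, 2949 and 2954, and their median percentiles were lower, at 81.8, 66.7 and 55.1. Percentiles of lists of different lengths show no change between days. At 945 members the −log10 p was lower at 3 days than in untreated cells and lower again at 6 days. The 6-day value was above the untreated value in 50, and 230 had a 3-day value above the untreated one. These counts were not made for other SON lines and mark no trait of the members. The lines met by both other SON lists without HMGB2 had medians of 18.7, 11.2 and 8.85, lower at each later day as well. The global IDR, the authors' measure of irreproducibility between 2 replicates, was at most 0.05 at 1242 members of the untreated list (94.3%), 1067 of the 3-day list (81.0%) and 357 of the 6-day list (27.1%). In the whole lists those shares were 59.7%, 41.4% and 15%. All 3 lists passed that threshold at 338 members (25.7%, exact binomial 23.3 to 28.1).

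The 2 replicates behind each SON list bear on how far these values can be read. Both replicates carried an identical −log10 p at 76.2% of members in the untreated list, where 56.0% of all its lines did. In the 3-day list it was 26.5% of members and 28.9% of all lines, and in the 6-day list 5.16% and 9.47%. Among members with unequal values, the higher replicate was above the lower by a median factor of 1.17, 1.62 and 1.302. How the replicates were made is not given in the sources used here, so their agreement is no measure of spread between cultures. Members ranked alike in the SON lists, with Spearman's rho over the 1317 members of 0.69 between untreated and 3 days, 0.58 between untreated and 6 days and 0.59 between 3 and 6 days. HMGB2 −log10 p and SON −log10 p were nearly unrelated across members, with rho of 0.13, 0.05 and 0.06. These peaks share libraries and base composition, and no test was made across them.

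The summits of the 2 proteins lay close together at the members and at the other overlapping peaks, all chosen for overlap. Overlap itself limits this distance, and the distance that overlap alone would give was not computed. The median distance between the HMGB2 summit and the summit of the SON line was 34 bp (32 to 37), 38 bp (36 to 41) and 38 bp (35 to 42) in the 3 lists. Within 100 bp lay 87.7%, 85.6% and 83.7% of members. At peaks met at untreated and 3 days only, 84.2% were within 100 bp of the untreated summit, and at those met in untreated cells only 80.3% (77.8 to 82.6) were. The HMGB2 peak lay wholly inside the SON line at 90.3%, 85.0% and 70.5% of members in the 3 lists, while the median width of the SON line there was 604, 581 and 474 bp.

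The members of highest rank were strong for both proteins in all 4 lists. Above the 90th percentile of all 3 SON lists lay 217 members, and 52 of these were above it in the HMGB2 list too. The highest mean percentile belonged to the member at IRGQ and ZNF576 (chr19:43595959-43596687), described above. The member between LOC107986644 and RPS12 (chr6:132814087-132814667) was the strongest HMGB2 peak of the list, with −log10 p 267 and fold 15.2, and had SON values of 104, 76.0 and 37.3. It ranked at percentile 98.8 or higher in every list. LIAT1 (chr17:409969-410372) had an HMGB2 −log10 p of 30.5 and SON values of 122, 253 and 62.9. PDE4C, a cAMP phosphodiesterase gene (chr19:18224459-18224821), had an HMGB2 value of 23.015 and the highest untreated SON value of the 12, 564, followed by 227 and 131. EIF4G3, a scaffold of translation initiation (chr1:21176766-21177127), had 20.0 for HMGB2 and SON values of 343, 192 and 74.965. In these 5 the highest SON value was in untreated cells at RPS12, PDE4C and EIF4G3 and at 3 days at IRGQ and LIAT1. At RPS12 both untreated replicates had 104 and the 3-day ones 76.0 and 177, so the second alone puts 3 days highest.

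The other 7 of these 12 were CDNF, ING1, SLC39A10, HNRNPL, ALKBH5, EIF5A and a member outside annotated genes at chr16:30658058-30658384. ING1 encodes a reader of methylated histone H3, SLC39A10 a zinc importer, HNRNPL a splicing regulator, ALKBH5 an RNA demethylase and EIF5A a translation factor. At HNRNPL (chr19:38850271-38850735) HMGB2 had 24.98 and SON 91.2, 69.2 and 27.1. Both untreated replicates there had 91.2, and the 3-day ones had 69.2 and 258. At ALKBH5 (chr17:18182953-18183832) HMGB2 had 59.3 and SON 50.5, 57.9 and 24.4, and the 3-day replicates there had 57.9 and 169. At EIF5A (chr17:7306872-7307637) HMGB2 had 19.7 and SON 103, 192 and 46.6, and its summit lay 294 bp past the start, inside the gene region, unlike the other 10 at starts. The 6-day SON value, the lower of 2 replicates, was the lowest SON value in all 12. At PDE4C the 6-day replicates had 233 and 131 and both 3-day ones 227, so the first alone puts 6 days above 3 days.

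**Figure D2:**
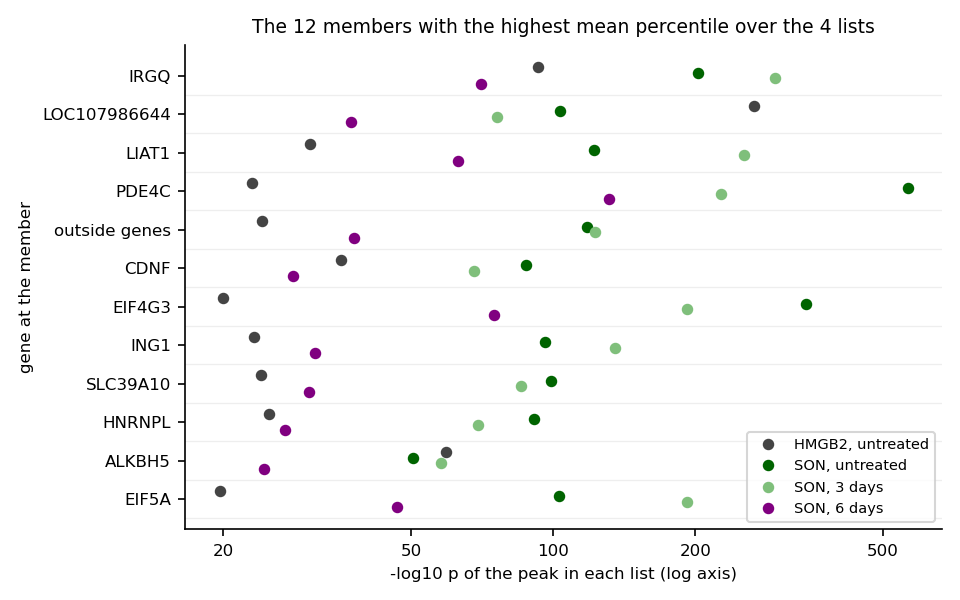
Peak −log10 p (log axis) in the HMGB2 list and the 3 SON lists for the 12 members with the highest mean percentile over the 4 lists, labelled by the gene whose start is nearest. SON at 6 days is the lowest of the 3 SON points in every row, where each SON point is the lower of 2 replicates. HMGB2 and SON points come from separate lists, and their heights are not to be ranked against each other.

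The 3 largest enrichments of HMGB2 among the members had different SON ranks. One was the member at RPS12, described above, with SON percentiles of 99.6, 98.8 and 98.9. At LOC101929609 and IPO13, a nuclear import receptor gene (chr1:43946102-43947216), the fold was 16.2 and the HMGB2 −log10 p 97.5, but SON had 23.6, 11.1 and 5.88, the last at the 6.53rd percentile of its list. At HSPA9, the mitochondrial chaperone mortalin (chr5:138575049-138576065), the fold was 14.2 and HMGB2 −log10 p 260, and SON had 65.0, 48.1 and 15.4, at percentiles 98.9, 97.2 and 91.5. The widest contrasts in SON rank between days were of both kinds. At UTP11, a factor of ribosome biogenesis, SON went from the 4.44th percentile of the untreated list (−log10 p 5.32) to the 92.0th at 3 days (25.4) and the 83.6th at 6 days (12.3). The low untreated value there came from 1 replicate, since the 2 replicates had 44.8 and 5.32 in untreated cells, 25.4 and 53.5 at 3 days and 24.975 and 12.3 at 6 days, and the first alone gives the opposite order. Inside HBP1, a transcriptional repressor gene, SON went from the 1.299th to the 75.2nd percentile, with replicate values of 4.79 and 9.90 in untreated cells and 16.3 and 10.8 at 6 days. At CPEB4, which encodes a binder of mRNA polyadenylation elements, it went from the 95.9th percentile (38.0) to the 0.182nd (4.51), and at PCF11, a factor of transcript 3′ end formation, from the 95.2nd (35.3) to the 0.648th (4.94). The other replicate at 6 days had 10.9 at CPEB4 and 9.97 at PCF11. These members were picked for their contrast, which makes their values a description of the extremes.

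Members were concentrated upstream of gene starts. Of 1287 members on the chromosomes with annotated starts here, which leave out chromosome 8, 798 (62.0%, 59.3 to 64.7) had the HMGB2 summit within 1 kb of a start, where 44.2% of all HMGB2 peaks did. The share was 64.1% at peaks met at untreated and 3 days only, 40.6% at those met in untreated cells only and 25.3% (23.5 to 27.2) at peaks without SON. So the members did not differ in this share beyond counting error from peaks that met SON up to 3 days. A further 149 members lay within 1 kb of the other end of a gene, 217 elsewhere inside a gene and 123 outside genes. Inside genes lay 42.1% of the peaks without SON and 16.9% of the members. At the members near a start the SON medians were 35.2, 22.04 and 9.91 in the 3 lists, and inside genes they were 22.03, 12.02 and 9.10. As percentiles the medians near a start were 95.2, 89.9 and 67.8, and inside genes 86.955, 70.8 and 58.2.

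**Figure D3:**
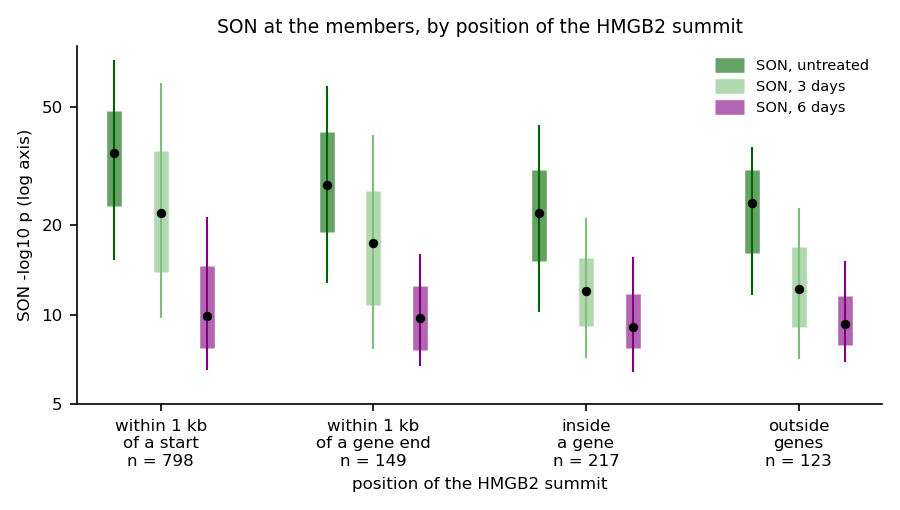
SON −log10 p (log axis) in the 3 lists at the members, by where the HMGB2 summit lay, with chromosome 8 left out. Dots are medians, thick bars run from the lower to the upper quartile and thin lines from the 10th to the 90th percentile. In each list the median is highest at starts (35.2, 22.04 and 9.91).

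At starts, the HMGB2 summit of the members lay further upstream than at other HMGB2 peaks. Its median position was −118.5 bp (−125 to −109), counted along the gene with negative values upstream. At peaks met at untreated and 3 days only it was −89 bp (−99 to −83), at those met in untreated cells only −60 bp and at peaks without SON −18.5 bp (−36 to 0). Upstream of the start lay 87.1% of the members' summits (84.6 to 89.3) and 53.9% of those without SON (49.6 to 58.2). SON summits at the same 798 members lay at −129.5, −130 and −133 bp in the 3 lists, and the SON summit was a median of 7, 7 and 9 bp further upstream than the HMGB2 summit. Starts on both strands lay within 1 kb of 34.3% of these members (31.0 to 37.7), of 28.7% of those met at untreated and 3 days only, and of 19.7% (16.4 to 23.3) without SON. For all HMGB2 peaks at starts it was 28.4%.

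**Figure D4:**
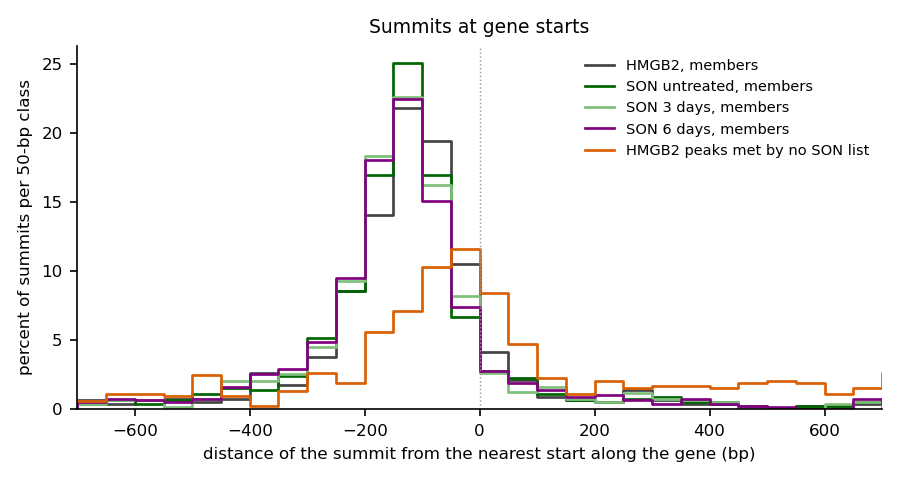
Position of summits relative to the nearest gene start along the gene, in 50-bp classes, for the 798 members at starts (HMGB2 and the 3 SON lists) and for HMGB2 peaks met by no SON list (orange). The 4 curves of the members peak together upstream of the start, near their medians of −118.5 to −133 bp, and the orange curve is broader and centred closer to the start.

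Promoter windows at the members were rich in CpG and, more than the windows of other HMGB2 peaks, held CCAAT and the NRF1 core. A window runs from 250 bases before to 50 after a start, and the 798 members at starts used 785 windows. A peak was given the window of its nearest start within 1 kb, so its summit can lie outside that window. The quartiles of summit position were −188 and −57.25 bp at the members, and −150 and 329.25 bp at peaks without SON. Summits without SON thus lay outside their windows more often, and the part of this in the shares below was not tested. The ratio of observed to expected CpG had a median of 0.864, against 0.793 at peaks without SON and 0.580 in all 34961 windows, while the G+C content was lower at the members (63.3%) than at peaks without SON (67.3%). CCAAT, on either strand, was in 59.5% of the members' windows (56.0 to 62.9). It was in 48.9% (45.3 to 52.5) of those met at untreated and 3 days only, 45.3% of those met in untreated cells only, 33.8% (29.7 to 38.0) without SON, 34.6% of all windows and 32.2% of windows with a CpG ratio of at least 0.6. The NRF1 core was in 7.01% (5.32 to 9.02) of the members' windows, 2.32% (1.38 to 3.65) of those met at untreated and 3 days only, 0.235% of those met in untreated cells only and 1.15% without SON. All windows held it at 1.92% and CpG-rich windows at 3.75%. The members' intervals overlapped none of the other groups for these 2 motifs. Among the stronger 50% of HMGB2 peaks, CCAAT was in 63.8% of the members' windows and 34.8% of those without SON.

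The GC box GGGCGG, bound by Sp factors, did not separate the groups, with 74.0% at the members (70.8 to 77.0), 71.4% without SON and 45.0% of all windows, where CpG-rich windows had 76.0%. The ETS core CCGGAAG was in 17.8% (15.2 to 20.7) of the members' windows and 12.9% (10.1 to 16.04) of those without SON, with 10.3% in all windows. The YY1 core AAGATGGCG was in 5.35% (3.88 to 7.16) against 2.30% (1.20 to 3.99), with 1.76% in all windows. The CTCF letters CCANNAGGG, a short part of the CTCF motif, were in 5.73% (4.21 to 7.60) against 8.25% (6.04 to 10.96), with 6.46% in all windows. ETS, YY1 and CTCF intervals of the 2 groups overlapped. The TATA box TATAAA was in 5.48% (3.99 to 7.31) of the members' windows, 6.53% of those without SON and 11.5% of all windows. The cAMP response element TGACGTCA was in 4.97% (3.56 to 6.73), 3.84% and 1.85%. The E-box CACGTG was in 12.2% (10.02 to 14.7), 8.45% (6.20 to 11.2) and 7.27%, and AP-1 TGANTCA in 4.59% (3.23 to 6.29), 6.33% and 7.68%. KAISO TCTCGCGA was in 2.42% (1.46 to 3.75), 1.15% and 1.15%, and ZNF143 ACTACAATT in 6 of the members' windows (0.764%), none of the 521 without SON (exact binomial up to 0.706%) and 0.338% of all. For these 6 motifs the intervals of the members and of the peaks without SON overlapped. Of the members' windows 91.6% were CpG-rich. CpG-rich windows held ETS at 18%, YY1 at 3.4%, CTCF at 5.69%, TATA at 4.51% and the cAMP response element at 3.19%. They held the E-box at 10.1%, AP-1 at 3.07%, KAISO at 2.31% and ZNF143 at 0.467%. The members' intervals lay above those of CpG-rich windows for YY1 and the cAMP response element, and overlapped them for the others of these motifs. None of the 12 motifs contains another. A match is a description of letters in the window and no measure of a factor bound there.

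**Figure D5:**
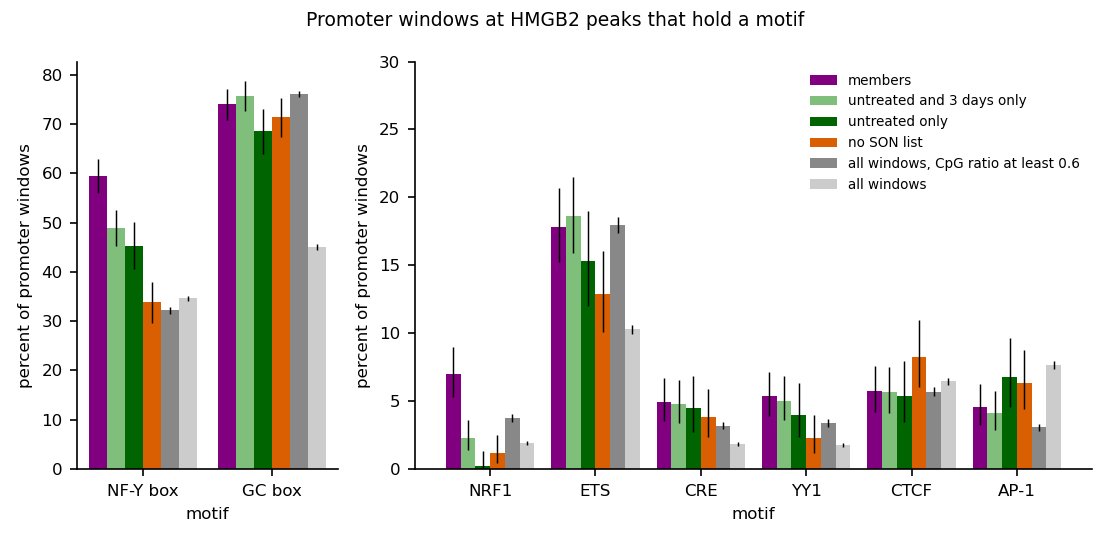
Share of promoter windows holding a motif on either strand, with exact binomial 95% intervals, for the members, for the other groups of HMGB2 peaks at starts and for all windows (NF-Y box stands for the CCAAT letters). The members' bars stand above the other groups for the NF-Y box (59.5%) and NRF1 (7.01%), and the GC box bars of all groups of HMGB2 peaks lie near those of CpG-rich windows.

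The 57 members with the NRF1 core, as at IRGQ, ASDURF and PCNX3 above, had higher SON values than the other 741 at starts. Their SON medians were 46.8 (quartiles 28.0 and 63.9), 41.1 (23.8 and 66.1) and 15.2 (8.80 and 25.1) in the 3 lists. The members without it had 34.9, 21.2 and 9.74, with quartiles of 7.66 and 14.2 at 6 days. The median 6-day percentile was 91.3 with and 65.8 without the core. Their HMGB2 −log10 p was not higher, with a median of 10.5 against 11.6. The 475 members with CCAAT had SON medians of 34.9, 21.3 and 10.1 and HMGB2 12.1, and the 323 without it had 35.7, 22.9 and 9.46 and HMGB2 10.5. The quartile ranges overlapped in each of these comparisons. The nearest CCAAT match lay a median of 42 bp from the HMGB2 summit, and within 50 bp at 56.6% of members with a match. The nearest GC box lay at 62.5 bp and the nearest NRF1 core at 62 bp.

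Genes of splicing, translation and protein folding were among those with a member at their start. Gene groups of 22 kinds were counted, chosen with earlier results of these data known, so their shares are a description. Of 644 listed genes with a start in the table, 118 (18.3%) had a member within 1 kb, where 876 of 15812 protein-coding genes (5.54%) did. Any HMGB2 peak lay at 40.7% of the listed genes and 16% of protein-coding genes. Members made up 45.0% of the listed genes with any HMGB2 peak and 34.6% of all such protein-coding genes.

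Among splicing genes, 8 of 24 hnRNP genes (33.3%, 15.6 to 55.3), which encode RNA-binding proteins of pre-mRNA, had a member. So did 7 of 38 genes of the snRNP and spliceosome core (18.4%) and 6 of 20 of speckle and paraspeckle proteins (30%). SR splicing factors had 2 of 12, and DEAD and DEAH box helicases 9 of 38 (23.7%). The SR interval (2.09% to 48.4%) takes in the 5.54% of all protein-coding genes, and 6 of the 12 SR genes had some HMGB2 peak. At PTBP1, a repressor of exon inclusion, HMGB2 had 12.6 and SON had 61.4, 45.7 and 20.7. At U2AF2, the factor that binds the polypyrimidine tract, HMGB2 was modest at 8.44, and SON was among the highest of all members at 540, 326 and 152. SNRNP70, a protein of the U1 snRNP, had the same form, with HMGB2 7.74 and SON 150, 137 and 53.5. Of the speckle genes, SRRM1, a splicing coactivator, had HMGB2 6.00 and SON 93.1, 139 and 32.6, and RBM14 had HMGB2 17.95 and SON 37.8, 45.0 and 12.01. SRRM1 was not among those of highest mean rank in its group and was singled out after its values were seen. SRSF7, an SR factor, had HMGB2 9.47 and SON 25.1, 30.1 and 8.29. DDX41, a helicase, had HMGB2 19.04 and SON 50.5, 32.6 and 12.2. At every one of these the 6-day SON value was the lowest, and HMGB2 −log10 p spanned 6.00 to 19.04.

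Translation factors had a member at 14 of 38 starts (36.8%, 21.8 to 54.0), an interval that takes in the shares of hnRNP, speckle and chaperone genes, and 14 of the 18 of them with any HMGB2 peak were at members. Besides EIF4G3 and EIF5A, EIF4A1, the initiation helicase, had HMGB2 18.4 and SON 42.4, 28.0 and 20.9. Cytosolic ribosomal protein genes had a member at 12 of 64 starts (18.8%) and mitochondrial ones at 5 of 64 (7.81%, 2.59 to 17.3). The interval of the mitochondrial ones takes in the 5.54% of all protein-coding genes. RPL18 had HMGB2 28.2 and SON 58.5, 35.5 and 16.5. MRPL45 had HMGB2 7.79 and SON 128, 173 and 40.3, so its SON value at 3 days was above the untreated one. Hosts of small nucleolar RNAs had members at 5 of 23, among them SNHG1 with HMGB2 13.7 and SON 45.8, 47.2 and 19.1. Chaperone genes had members at 10 of 33 (30.3%), and the shared start region of HSPE1 and HSPD1, the mitochondrial chaperonins, counted for both.

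Groups linked to the cell cycle, stress and the fibroblast state were counted too. Replication histone genes had members at 10 of 46 starts, where 32 of the 46 had some HMGB2 peak. Of these 32, 31.25% were at members, where 34.6% of all protein-coding genes with any HMGB2 peak were. Pairs such as H2AC11 and H2BC11 shared a member, so fewer separate peaks underlie the count of 10. That member had HMGB2 19.2 and SON 55.7, 15.8 and 15.3. Cell cycle genes had 5 of 29, among them PCNA, the replication clamp, with HMGB2 7.43 and SON 20.9, 21.3 and 7.55. Immediate early genes had 2 of 21, JUN and JUND, though 12 of 21 had some HMGB2 peak. At JUN, a subunit of AP-1, HMGB2 had 58.3 and SON 38.9, 25.1 and 10.4. The p53 target genes had 2 of 21 and the fibroblast matrix and cytoskeleton genes 2 of 34, with 11 and 14 at any HMGB2 peak. CTCF, with HMGB2 12.6 and SON 37.1, 20.8 and 10.7, and the cohesin gene STAG1, with HMGB2 8.44 and SON 65.2, 64.1 and 15.8, were 2 of 13 in their group. No member was at the start of the 22 secretory genes of senescence, which allows a share of up to 15.4%, and only 1 of these 22 had any HMGB2 peak. None was at the 9 high mobility group genes either, which allows up to 33.6%, and 3 of these had some HMGB2 peak. Both bounds lie above the 5.54% of all protein-coding genes. The intervals of the immediate early, p53 target, matrix and cytoskeleton, and CTCF and cohesin groups take in that share too.

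Further groups were counted in the same way. Proteasome subunits had members at 5 of 27 starts, complex I subunits at 6 of 32, RNA polymerase II subunits at 2 of 8 and RBM genes at 4 of 28. The intervals of RNA polymerase II (3.19% to 65.1%) and RBM genes (4.03% to 32.7%) take in the 5.54% of all protein-coding genes. NDUFS1, a core subunit of complex I, had HMGB2 8.42 and SON 256, 91.6 and 28.1. It shared this member with EEF1B2, a gene of the translation factor group whose start was nearer. PSMA2 shared its member with MRPL32, with HMGB2 14.5 and SON 38.6, 44.1 and 10.0. POLR2F had HMGB2 9.72 and SON 14.9, 14.3 and 11.3.

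The share of HMGB2 peaks that were members differed between chromosomes. Chromosome 19 held 153 members, and 33.2% of its 461 HMGB2 peaks were members (28.9 to 37.7), above the 22% of all peaks. On chromosome 2 the share was 15.9% (12.5 to 19.7), and on X it was 14.3% of 49 peaks (5.94 to 27.2). Peaks without SON made up 33.2% of the HMGB2 peaks of chromosome 19 and 36.1% of all. The members lay in 719 bins of 1 Mb, and 433 of these bins held 1 member. The fullest were chr11:65000001-66000000, with 13 members among 61 HMGB2 peaks, and chr19:49000001-50000000, with 13 among 23. Neighbouring members on a chromosome were a median of 461 kb apart, and merging those within 1 kb left 1289 loci.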

How the data were processed

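Members and gene groups were chosen with earlier results of these data known. The authors deposited 3 SON lists with 20 columns, as the IDR tool writes them for 2 replicates, and an HMGB2 list with 10 columns in the narrowPeak layout. The submitters' processing notes name hg38, Bowtie2, MACS2, deepTools and bcl2fastq 2.17. They give no role for each, and read filters, control and depth are not given in the sources used here. The −log10 p in the deposited SON lists is the lower of the 2 replicates' values, and the global IDR and its scaled score are the authors' too. The deposited HMGB2 list holds the authors' fold enrichment, −log10 p, −log10 q and a score, and a q cutoff of 0.03 stands in their peak names. These values rank and describe peaks within their own list only. The input for HMGB2 and its DSG sample were not analysed here.

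From these, overlaps of at least 1 bp were counted on chromosomes 1 to 22 and X. The SON line of a member is its strongest overlapping line. Summits were placed against starts of RefSeq GRCh38.p14 within 1 kb, and motifs were searched on both strands of its promoter windows, without chromosome 8. Intervals are exact binomial, or order-statistic for medians, at 95%, and cover counting error only. With 1 list per group no test between conditions was made. Named members were the 12 of highest mean percentile, the 4 highest and 4 lowest in 6-day minus untreated percentile, the 3 top genes of each gene group, the SON line of each list with most members, the 3 largest folds and the 3 nearest the rule on each side, and the text gives a selection of these. The SON lines with 2 members tied, and none is named. The 9 sequences were chosen by motif and mean percentile among the 274 members with a full stretch. Alternatives changed the overlap, the strength threshold, the start window, the replicate and the choice of SON line. Scripts were tested on simulated data. The work used scipy 1.17.1, numpy 2.4.6, matplotlib 3.10.9 and pandas 2.3.3 under Python 3.11.15.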

Additional observations from a re-analysis of the deposited data

Results flagged for a closer look

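HMGB2 lines off chromosomes 1 to 22 and X were outside every comparison above. Of 21 such lines, 15 (71.4%, exact binomial 47.8 to 88.7) were met by every SON list, where 1317 of 5992 HMGB2 peaks (22%) on chromosomes 1 to 22 and X were. They are listed because data left out of the comparisons held more than the 3 that a count of 0 allows, a low bar that any count of 4 or more passes. Of the 15, 7 lay on the mitochondrial genome and 8 on unplaced contigs. Their median HMGB2 −log10 p was 25.3, and their SON medians were 90.1, 64.2 and 41.7 in the untreated, 3-day and 6-day lists.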

How the results depend on the processing

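Of 54 recomputed values, 37 stayed within the main value's 95% interval or, for the count of members, within 1.5 times of it. The count of 1317 was 1294 with at least 50% of the HMGB2 peak covered, 1305 with its summit inside the SON line and 1027 with the strongest 5481 lines of each SON list. It fell to 338 when every SON list had to pass an IDR of 0.05, 762 with the stronger 50% of each SON list and 854 with the stronger 50% of HMGB2 peaks. With the IDR threshold, the HMGB2 medians were −log10 p 11.8, fold 4.04 and width 288.5 bp, the 6-day summit distance was 33.5 bp, 74.0% of members were at starts and 11.6% of windows held the NRF1 core. With the stronger 50% of HMGB2 peaks, the medians were 13.97, 4.67 and 303 bp, the untreated SON percentile 93.5 and the CCAAT share 63.8%. The second replicate alone gave a 3-day SON percentile of 79.6. Windows of 500 bp and 2 kb put 59.0% and 64.7% of members at starts. Fewer members entered under the stricter thresholds, and the cause of the other shifts was not tested. Under all 6 thresholds of overlap or strength, members had a higher HMGB2 −log10 p, a lower fold and a higher share at starts, with CCAAT and with the NRF1 core than peaks without SON, for example 13.97 against 11.4 and 4.67 against 6.65 with the stronger 50% of HMGB2 peaks. With 1 list per group no list could be left out, single replicates of the SON lists entered only through their −log10 p, and no paired analysis was possible because no result comes from a test.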

Other observations

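Genes of small RNAs lay under a few of the members, at shares whose intervals take in that of all HMGB2 peaks. A transfer RNA gene overlapped 18 members (1.37%, 0.812 to 2.15), 21 of the 1250 peaks met at untreated and 3 days only (1.68%) and 11 of the 2165 peaks without SON (0.508%, 0.254 to 0.907), against 1.10% of all HMGB2 peaks. An snRNA gene overlapped 7 members (0.532%, 0.214 to 1.09), 6 peaks met at untreated and 3 days only and 5 met in untreated cells only. It overlapped 0 of the 2165 without SON, which allows a share of up to 0.170%, against 0.300% of all HMGB2 peaks. A microRNA gene overlapped 8 members (0.607%) and 3 peaks without SON (0.139%), against 0.367% of all. No member overlapped a small nucleolar RNA gene, which allows up to 0.280%. Many transfer and small nuclear RNA genes have near-identical copies, and how reads with several equal matches were placed is not given in the sources used here.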
